A study of Danio rerio with 4 samples.

Results

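Chemokines are small secreted proteins that set up gradients for migrating cells, and their receptors are membrane proteins that signal through inhibitory G proteins. Ligands are named by the spacing of their first cysteines (CXC, CC or XC), and atypical receptors (ACKR) bind chemokines and remove them without G protein signalling. In injured zebrafish hearts, Cxcl8-type ligands are known for drawing neutrophils, Cxcl11-type ligands for drawing Cxcr3-bearing macrophages, and Cxcl12 with Cxcr4 for guiding coronary endothelium and cardiomyocytes. The genes described here were all gene IDs whose symbol starts, case ignored, with ccl, cxcl, xcl, ccr, cxcr, xcr or ackr followed by a number. The rule found 80 of the 32520 gene IDs in each count table, with 52 ligands and 28 receptors.

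RNA-seq read counts came from whole hearts of adult Ekkwill zebrafish in 4 libraries with 1 library per group. The groups were LEN mutant (LEN[delta]/[delta]) hearts at 3 days post-amputation (3 dpa), LEN mutant uninjured hearts, wild-type (LEN+/+) hearts at 3 dpa and wild-type uninjured hearts. LEN stands for an enhancer of regeneration tied to the leptin b gene (lepb). Both LEN mutant groups carry its deletion, so each genotype has its own uninjured library as baseline. How many hearts went into a library, and whether they were pooled, is not stated in the labels. The design has no replicate, so no value below has a check against variation between hearts and no p-value is given.

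The libraries held 34757291 counts (LEN mutant, 3 dpa), 31898971 (LEN mutant, uninjured), 35026983 (wild type, 3 dpa) and 31618442 (wild type, uninjured). The gene lepb had 2 and 2 counts in the LEN mutant 3 dpa and uninjured libraries, and 78 and 2 counts in the wild-type 3 dpa and uninjured libraries. The heart muscle gene MYL7 was at 6326 and 13360 CPM in LEN mutant 3 dpa and uninjured hearts and at 6913 and 13250 CPM in wild-type ones. The wild-type uninjured library stood apart by liver genes. Of 8 hepatocyte markers, 7 had 0 to 12 counts in each of the other 3 libraries and 472 to 8972 counts in that one. The last, tfa, had 16268 and 1151 counts in LEN mutant 3 dpa and uninjured hearts and 14879 and 10356 counts in wild-type ones.

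Levels are given as read counts, or as CPM (the count rescaled to a common library size after TMM scaling). Log2 ratios are differences of log2 CPM with a prior count of 2, which draws the ratios of low genes towards 0. Each log2 ratio stands with its 95% counting interval, which compares the libraries and covers counting error only. The threshold was passed by genes with a log2 ratio of 1 or more in size and an interval that excluded equal abundance. Genes with at least 1 CPM in at least 1 library were tested (16509 genes), which left 40 of the 80 members, 22 ligands and 18 receptors. A member low in 3 libraries and high in 1 enters this set through its high library. Likewise, a member below 1 CPM in both uninjured libraries enters through the 3 dpa libraries. Counts over the 40 therefore describe the set and support nothing by themselves. For 7 symbols the name table gave 2 IDs each without the zebrafish copy letter, and these genes are named with their ID.

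**Figure D1:**
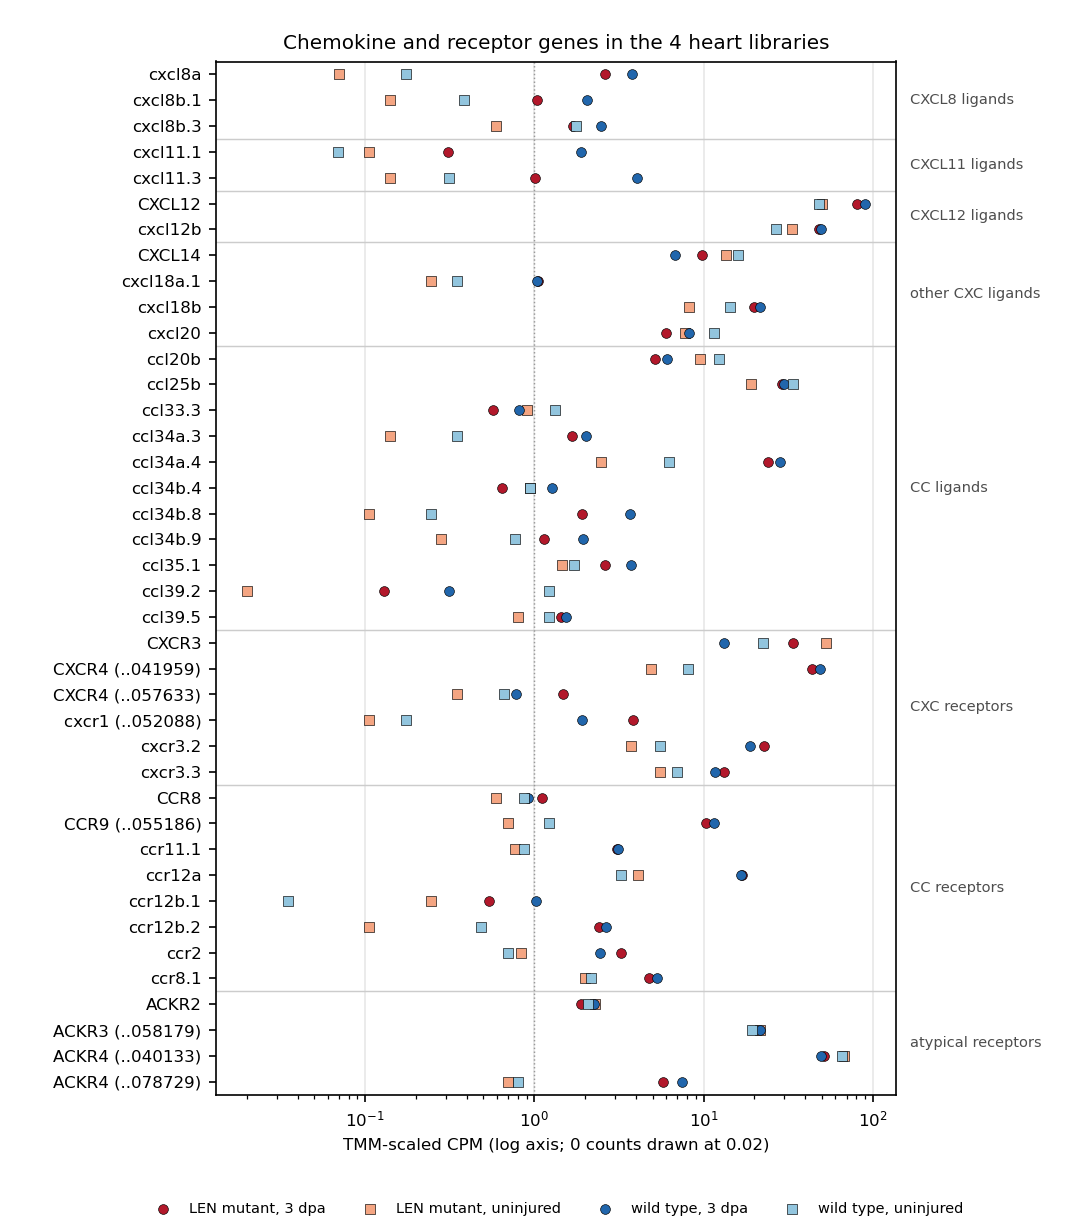
TMM-scaled CPM (x axis, log scale) of the 40 tested chemokine and receptor genes (rows, grouped by role) in each of the 4 libraries, with 3 dpa libraries as circles and uninjured libraries as squares; 0 counts are drawn at 0.02. For most receptors and for cxcl8a and cxcl8b.1 both circles lie to the right of both squares, while CXCR3 is ordered by genotype, with both LEN mutant libraries (33.6 and 52.7 CPM) to the right of both wild-type libraries (13.2 and 22.3 CPM).

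The injury comparison asked how these genes differed at 3 dpa from uninjured hearts. In LEN mutant hearts 22 of the 40 tested members were past the threshold and higher at 3 dpa and 0 were lower, against 14.7% higher and 5.62% lower among all tested genes. In wild-type hearts 21 were higher and 3 lower, against 13.2% and 6.76% of all tested genes. Several of the higher members, among them cxcl8a and ccr2, reached 1 CPM only at 3 dpa and were tested through those libraries. These counts therefore support nothing by themselves when set against the shares. The median log2 ratio of the tested members was 1.35 in the mutant and 1.19 in wild type, beside 0.04 and 0.03 over all tested genes. These medians are over the same filtered set. Without a filter they were 0.92 in the mutant and 0.33 in wild type, beside 0.02 and 0.00 over all tested genes. A total of 18 members were past the threshold and higher in both genotypes, where the share over all tested genes was 10.9%. Log2 ratios had the same sign in both genotypes for 35 of the 40, and the share over all tested genes was not computed for this. Receptors made up 12 of the 22 in the mutant and 11 of the 21 in wild type. The matched cardiomyocyte markers summed to 14950 CPM at 3 dpa and 29840 CPM uninjured in the mutant, and to 15470 and 29320 CPM in wild type; the part of this shift in the members' ratios was not tested. Scaling by the total count moved the median of all tested genes to 0.36 in the mutant and 0.30 in wild type. It gave 27 members higher and 0 lower in the mutant and 24 higher and 1 lower in wild type. Of 16508 tested genes, 3527 were then higher and 349 lower in the mutant, and 3104 higher and 624 lower in wild type.

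**Figure D2:**
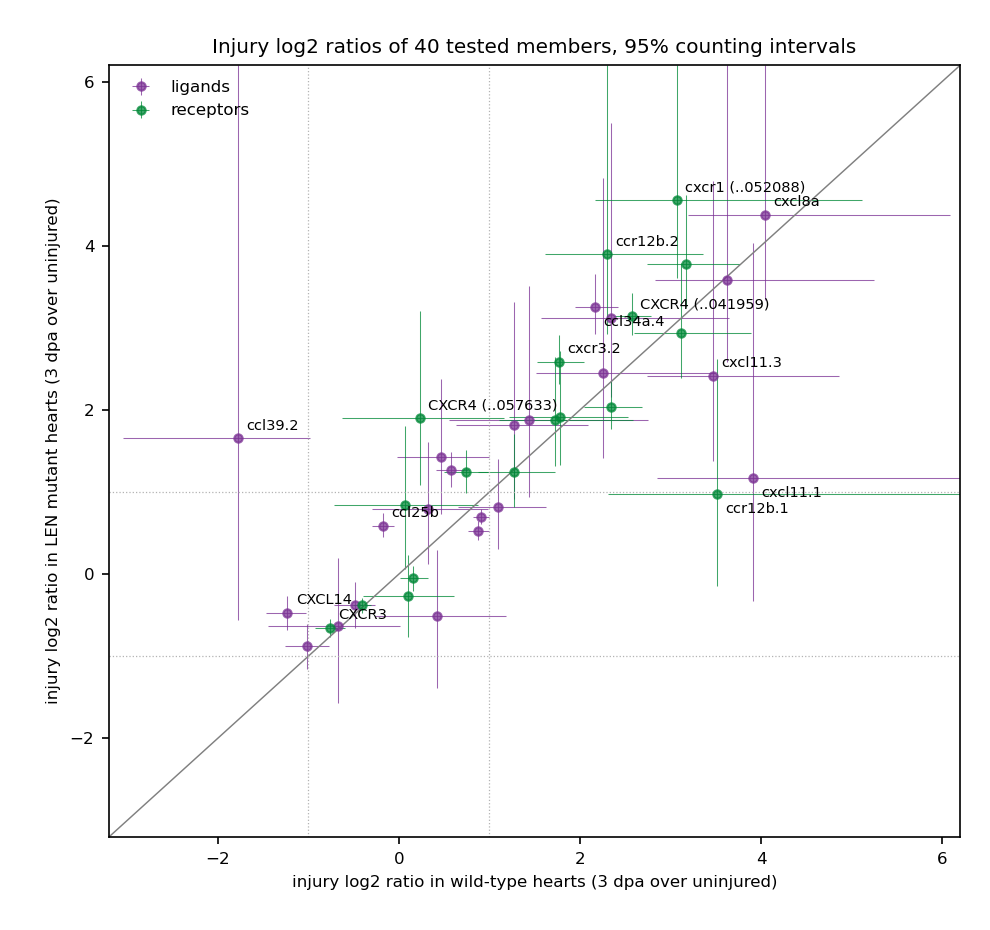
Injury log2 ratio (3 dpa over uninjured) in LEN mutant hearts (y axis) against that in wild-type hearts (x axis) for the 40 tested members, with 95% counting intervals that are cut at the axis limits, a line of equality and dotted lines at the threshold of 1. Of the 40 points 27 lie above the line, and among all tested genes 49.2% lie below it. Farthest below it are cxcl11.1, ccr12b.1 and cxcl11.3. Farthest above it are ccl39.2, 1 CXCR4 gene, ccr12b.2, 1 cxcr1 gene and ccl34a.4.

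The CXCL8-type ligands, which in zebrafish attract neutrophils through Cxcr1 and Cxcr2, were higher at 3 dpa. In LEN mutant hearts cxcl8a had 102 counts at 3 dpa and 2 when uninjured, and in wild-type hearts it had 145 and 5. Both 3 dpa libraries exceeded both uninjured ones, with log2 ratios of 4.38 in the mutant (3.34 to 8.30) and 4.04 in wild type (3.19 to 6.09). Its relative cxcl8b.1 had 40 and 4 counts in LEN mutant 3 dpa and uninjured hearts and 79 and 11 counts in wild-type ones (log2 ratios 2.45 and 2.26). The neighbouring copy cxcl8b.3 had 66 and 17 counts in the mutant (1.43, 0.73 to 2.38) and 95 and 51 counts in wild type (0.47, -0.02 to 1.0), past the threshold in the mutant alone. Its injury log2 ratio in the mutant exceeded that in wild type by 0.96 (0.08 to 1.84), short of the threshold. Summed over the 3 genes, the log2 ratio was 2.65 in the mutant (2.11 to 3.43) and 1.81 in wild type (1.45 to 2.24), a difference of 0.84 (0.13 to 1.55).

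Among their receptors, the ID ENSDARG00000052088 (symbol cxcr1) had 148 counts at 3 dpa and 3 uninjured in LEN mutant hearts, and 73 and 5 in wild-type hearts. Its log2 ratio was 4.56 in the mutant (3.61 to 7.48) and 3.07 in wild type (2.17 to 5.12). The second ID with that symbol, ENSDARG00000054975 (CXCR1), stayed below the filter, with 14 and 4 counts in the mutant and 21 and 3 in wild type. The ligand cxcl18b, which zebrafish neutrophils also follow, had 774 and 236 counts in the mutant (1.27, 1.06 to 1.49) and 822 and 412 counts in wild type (0.58, 0.41 to 0.76). Both 3 dpa libraries were above both uninjured ones, and the mutant alone passed the threshold. Its relative cxcl18a.1 had 41 and 7 counts in the mutant and 40 and 10 in wild type, with log2 ratios of 1.88 and 1.44, both past the threshold.

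The summed neutrophil and macrophage markers were higher at 3 dpa in both genotypes, and not every marker shared this. For neutrophils 6 of 9 listed symbols were matched, with mpx unmatched, and their sum was 94.29 CPM at 3 dpa and 38.03 CPM uninjured in LEN mutant hearts, and 71.43 and 41.37 CPM in wild-type hearts. The neutrophil lysozyme gene lyz was at 2.857 and 3.245 CPM in the mutant and at 3.025 and 2.99 CPM in wild type, so it was not among the higher ones. The marker npsn was at 18.84 and 18.6 CPM in the mutant and at 17.0 and 12.34 CPM in wild type. In the mutant the sum rose mainly through MMP9 (33.57 and 7.746 CPM), CSF3R (23.58 and 5.094 CPM) and il6r (13.03 and 2.442 CPM). Of the 6 matched markers 4 were past the threshold and higher in the mutant and 2 in wild type. For macrophages 7 of 10 symbols were matched, with mpeg1.1 and mfap4.1 among those unmatched, and their sum was 558.2 and 272.3 CPM in the mutant and 572.5 and 245.7 CPM in wild type. None of the matched neutrophil or macrophage markers was at 0 in any library. The 7 matched T and NK cell markers went the other way in sum, at 5.226 and 8.165 CPM in the mutant and 4.851 and 6.188 CPM in wild type. They had no common direction, with 1 of the 3 tested markers past the threshold and higher and 1 lower in each genotype. The lower marker was il2rb in the mutant and lck in wild type. For il2rb the levels were 1.75 and 5.164 CPM in the mutant and 1.773 and 3.233 CPM in wild type, there short of the threshold. For lck they were 1.107 and 1.221 CPM in the mutant and 0.5216 and 1.564 CPM in wild type. In contrast, cd4-1 was at 1.261 and 0.4885 CPM in the mutant and at 1.487 and 0.3824 CPM in wild type. In whole hearts, more cells of a type and more RNA per cell cannot be told apart, and the part of leukocyte number in the chemokine values was not tested.

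Both CXCR4 genes were higher at 3 dpa in LEN mutant hearts, and 1 of them in wild-type hearts. The first CXCR4 gene (ENSDARG00000041959), a Cxcl12 receptor, had 1696 counts at 3 dpa and 140 uninjured in LEN mutant hearts, and 1860 and 233 in wild-type hearts. These are 43.7 and 4.88 CPM in the mutant and 48.5 and 8.10 CPM in wild type, and the log2 ratios were 3.14 (2.91 to 3.42) and 2.57 (2.38 to 2.78). The second CXCR4 gene (ENSDARG00000057633) had 57 and 10 counts in the mutant (1.90, 1.09 to 3.21) and 30 and 19 in wild type (0.23, -0.63 to 1.16). This gene was past the threshold in the mutant, and the difference of its injury log2 ratios was 1.68 (0.47 to 2.88).

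The ligands of these receptors moved less. CXCL12 had 3136 and 1427 counts in LEN mutant 3 dpa and uninjured hearts (0.70, 0.61 to 0.79) and 3473 and 1386 counts in wild-type ones (0.91, 0.82 to 1.0). Its copy cxcl12b had 1881 and 958 counts in the mutant (0.53, 0.42 to 0.65) and 1888 and 771 in wild type (0.88, 0.76 to 1.0). Neither ligand reached the threshold, although every interval lay above 0; under scaling by the total count CXCL12 passed in both genotypes, with log2 ratios of 1.01 in the mutant and 1.18 in wild type, and cxcl12b in wild type, with 1.14. The atypical Cxcl12 receptor gene ACKR3 (ENSDARG00000058179), which clears the ligand, had 809 and 619 counts in the mutant (-0.05, -0.21 to 0.10) and 825 and 553 in wild type (0.16, 0.01 to 0.32). Its second ID, ENSDARG00000062478, had 0 to 7 counts.

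Cells that line and cover the heart are known sources of Cxcl12. The 6 epicardial and fibroblast markers summed to 3993 CPM at 3 dpa and 841.8 CPM uninjured in LEN mutant hearts, and to 4782 and 984.9 CPM in wild-type hearts. The 6 matched endothelial and endocardial markers summed to 740.8 and 1052 CPM in the mutant and to 666.6 and 912.4 CPM in wild type. None of these markers was at 0 in any library, and their part in the CXCL12 values was not tested.

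Of the 3 genes with a CXCR3 symbol, 2 were higher at 3 dpa. The receptor cxcr3.2, through which zebrafish macrophages follow Cxcl11.1, had 885 and 107 counts in LEN mutant hearts (2.59, 2.32 to 2.91) and 723 and 158 counts in wild-type hearts (1.77, 1.53 to 2.04). The neighbouring cxcr3.3, known in zebrafish as a scavenging relative of cxcr3.2, had 511 and 159 counts in the mutant (1.24, 0.99 to 1.51) and 447 and 200 in wild type (0.74, 0.50 to 0.99), past the threshold in the mutant alone, although under scaling by the total count the wild-type ratio was 1.01. The third gene, listed as CXCR3 (ENSDARG00000007358), had 1306 and 1510 counts in the mutant (-0.65, -0.76 to -0.54) and 506 and 642 in wild type (-0.76, -0.93 to -0.59), below 0 in both and short of the threshold.

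The CC receptors had 8 tested members, of which 6 were past the threshold and higher at 3 dpa in LEN mutant hearts and 7 in wild-type hearts. Among all tested genes 14.7% were higher in the mutant and 13.2% in wild type. Of the 8, ccr2, ccr11.1, CCR8, ccr12b.1 and ccr12b.2 reached 1 CPM only at 3 dpa and were tested through those libraries. The counts of 6 and 7 therefore support nothing by themselves when set against the shares. One CCR9 gene (ENSDARG00000055186), in mammals the Ccl25 receptor of gut-homing and thymic cells, had 403 and 20 counts in the mutant (3.78, 3.25 to 4.62) and 439 and 35 in wild type (3.17, 2.74 to 3.77). The gene ccr12a had 658 and 117 counts in the mutant (2.04, 1.77 to 2.35) and 638 and 93 in wild type (2.34, 2.05 to 2.69). Next, ccr2, in mammals the receptor of inflammatory monocytes, had 126 and 24 counts in the mutant and 94 and 20 in wild type, with log2 ratios of 1.88 and 1.73. All 3 genes were higher in both 3 dpa libraries than in both uninjured ones.

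Similar ratios in both genotypes were seen for ccr11.1, with 119 and 22 counts in the mutant (1.92) and 120 and 25 in wild type (1.78), and for ccr8.1, with 185 and 57 counts in the mutant (1.24) and 203 and 62 in wild type (1.27). The gene CCR8, the other member of that family, had 43 and 17 counts in the mutant (0.84, 0.06 to 1.80) and 35 and 25 in wild type (0.07, -0.71 to 0.87) and stayed short of the threshold. The neighbouring pair ccr12b.1 and ccr12b.2 differed between the genotypes in opposite directions. For ccr12b.1 the counts were 21 and 7 in the mutant (0.98, -0.14 to 2.62) and 39 and 1 in wild type (3.51, 2.31 to 10.21), a difference of -2.53 (-4.63 to -0.43). For ccr12b.2 they were 93 and 3 in the mutant (3.90, 2.92 to 6.82) and 101 and 14 in wild type (2.30, 1.62 to 3.36), a difference of 1.60 (0.06 to 3.14). Both differences rest on uninjured counts of 1 to 14, and with a prior count of 10 that of ccr12b.2 was 0.84.

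Of the atypical CC receptors, 1 of the 2 ACKR4 genes responded. In mammals ACKR4 removes Ccl19, Ccl21 and Ccl25. The gene ENSDARG00000078729 had 224 and 20 counts in the mutant (2.94, 2.39 to 3.79) and 284 and 23 in wild type (3.12, 2.60 to 3.89). The other, ENSDARG00000040133, had 2012 and 1931 counts in the mutant (-0.38, -0.47 to -0.29) and 1906 and 1896 in wild type (-0.41, -0.50 to -0.31). For ACKR2, a scavenger of inflammatory CC ligands in mammals, the counts were 73 and 65 in the mutant (-0.26, -0.77 to 0.23) and 86 and 60 in wild type (0.10, -0.39 to 0.61).

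Among the CC ligands 11 of 34 members were tested. In LEN mutant hearts 4 were past the threshold and higher at 3 dpa and 0 lower, against 14.7% and 5.62% of all tested genes. In wild-type hearts 5 were higher and 2 lower, against 13.2% and 6.76%. The higher genes ccl34a.3, ccl34b.8 and ccl34b.9 reached 1 CPM only at 3 dpa. The lower gene ccl39.2 reached it only in the wild-type uninjured library. The counts therefore support nothing by themselves when set against these shares. The ccl34 genes, a group of fish CC ligands, held all 4 of the mutant calls. For ccl34a.4 the counts were 936 at 3 dpa and 71 uninjured in the mutant (3.25, 2.93 to 3.65) and 1090 and 180 in wild type (2.17, 1.95 to 2.42). Its injury log2 ratio was larger in the mutant by 1.08 (0.67 to 1.49). Both 3 dpa libraries exceeded both uninjured ones, and the mutant uninjured library was the lowest.

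Its neighbour ccl34a.3 had 65 and 4 counts in the mutant (3.12) and 77 and 10 in wild type (2.34). On the other ccl34 cluster, ccl34b.8 had 74 and 3 counts in the mutant (3.58, 2.58 to 6.50) and 140 and 7 in wild type (3.62, 2.83 to 5.25). The adjacent ccl34b.9 had 44 and 8 counts in the mutant (1.82) and 74 and 22 in wild type (1.27). The copy ccl34b.4 did not share this pattern, with 25 and 27 counts in the mutant (-0.51, -1.39 to 0.29) and 49 and 27 in wild type (0.42, -0.26 to 1.18). The remaining copies ccl34b.1 and ccl34b.3 had 0 to 13 counts.

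The other tested CC ligands had smaller ratios or ratios below 0. For ccl35.1 the counts were 102 and 42 in the mutant (0.82, 0.31 to 1.40) and 143 and 49 in wild type (1.1, 0.65 to 1.63), past the threshold in wild type, a call that was lost with upper-quartile factors. Its ratios differed by -0.29 (-0.97 to 0.40). The gene ccl20b, whose mammalian relative is the Ccr6 ligand of mucosal surfaces, had 201 and 273 counts in the mutant (-0.87, -1.15 to -0.61) and 234 and 355 in wild type (-1.01, -1.26 to -0.77). It was past the threshold and lower at 3 dpa in wild type, and short of it there under scaling by the total count (-0.74). Its ratios differed by 0.14 (-0.22 to 0.49). A CCL20 receptor of mammals, CCR6, had 2 IDs with at most 29 counts.

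The thymus-type ligand ccl25b, in mammals the partner of CCR9, had 1126 and 550 counts in the mutant (0.59, 0.45 to 0.74) and 1151 and 973 in wild type (-0.17, -0.30 to -0.05). The mutant uninjured library was the low one, and the other 3 lay between 973 and 1151 counts. For ccl39.5 the counts were 56 and 23 in the mutant (0.80, 0.12 to 1.61) and 59 and 35 in wild type (0.32, -0.29 to 0.99), and for ccl33.3 they were 22 and 26 in the mutant (-0.63, -1.57 to 0.20) and 31 and 38 in wild type (-0.67, -1.44 to 0.01). The gene ccl39.2 had 5 and 0 counts in the mutant and 12 and 35 in wild type, and was lower at 3 dpa in wild type (-1.78, -3.04 to -0.98). With the LEN mutant uninjured library as the baseline of the wild-type 3 dpa library, 26 members were higher and 1 lower instead of 21 and 3. That baseline was chosen after seeing the data, and the share over all tested genes was not computed for it. The counts under it support nothing by themselves. In the wild-type injury comparison 7 of the 8 hepatocyte markers were also lower at 3 dpa, with 0 to 7 counts each against 472 to 8972 uninjured, and their part in the lower ligands was not tested.

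Of the remaining CXC ligands, CXCL14, a ligand made by resting epithelia in mammals, had 379 and 388 counts in the mutant (-0.47, -0.68 to -0.26) and 261 and 462 in wild type (-1.23, -1.46 to -1.02). It was past the threshold and lower at 3 dpa in wild type, and at -0.97 under scaling by the total count it was not. The difference of its injury log2 ratios was 0.76 (0.46 to 1.06). For cxcl20 the counts were 234 and 224 in the mutant (-0.37, -0.65 to -0.10) and 314 and 330 in wild type (-0.48, -0.71 to -0.26).

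The genotype comparison at 3 dpa asked what differed between LEN mutant and wild-type hearts after injury. Of the 40 tested members 1 was past the threshold and higher in the mutant and 2 were lower, against 2.24% higher and 0.769% lower among all tested genes. The 2 lower genes were both CXCL11-type ligands, and the higher one was CXCR3. Of the 2, cxcl11.1 reached 1 CPM only in the wild-type 3 dpa library (1.878 CPM), the high side of this comparison. At 3 dpa cxcl11.3 was at 1.004 CPM in the mutant and 4.069 CPM in wild type. The count of lower members therefore supports nothing when set against the share. With a minimum of 5 CPM, 18 members were tested and 0 were lower, against 38 of 12281 genes. Under scaling by the total count 2 were higher and 2 lower, against 407 and 120 of 16508 tested genes. Ratios below 0 were counted separately for ligands and receptors. Of the 22 tested ligands 20 had a log2 ratio below 0 at 3 dpa, with a median of -0.46, while 9 of the 18 receptors did, with a median of 0.00. Among all tested genes 50.3% were below 0, and the median was 0.00. For ccl20b, ccl25b, ccl33.3, ccl34a.3, ccl39.2, ccl39.5, cxcl12b and cxcl18b, which are among the 20, the interval included 0. The ligands cxcl11.1 and ccl34b.4 reached 1 CPM only in the wild-type 3 dpa library. Neighbouring copies were counted separately. The count of 20 therefore supports nothing by itself.

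**Figure D3:**
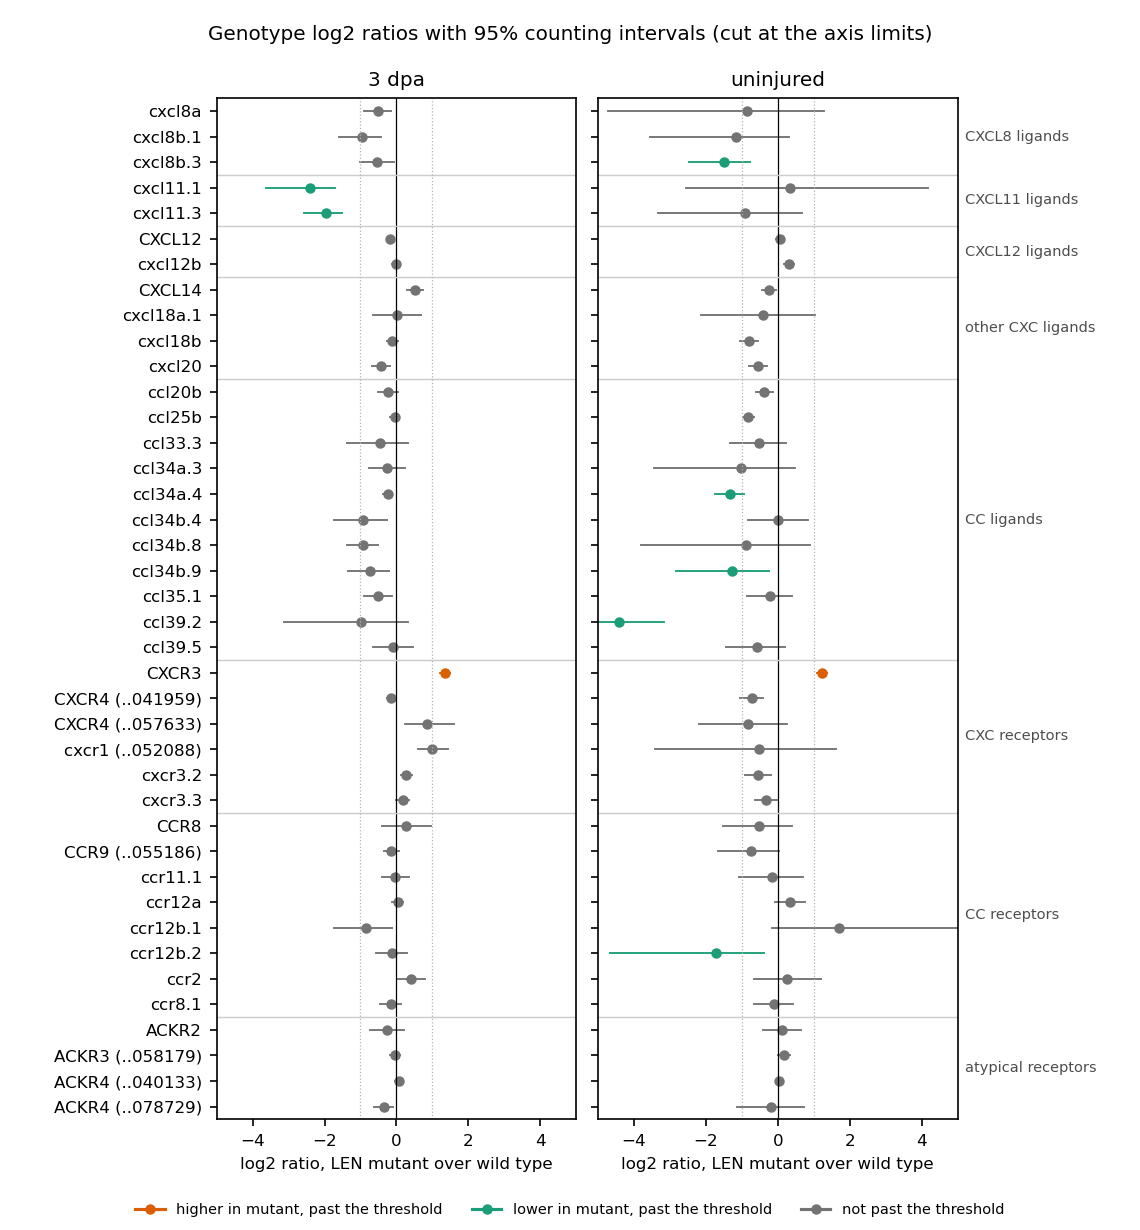
Log2 ratios of LEN mutant over wild type at 3 dpa (left) and in uninjured hearts (right) for the 40 tested members, with 95% counting intervals cut at the axis limits. At 3 dpa cxcl11.1 (-2.39) and cxcl11.3 (-1.96) lie past the threshold on the low side, and CXCR3 lies past it on the high side in both panels (1.35 and 1.24).

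The CXCL11-type ligands, which in mammals are induced by interferon and act on CXCR3, were lower in LEN mutant hearts at 3 dpa. For cxcl11.3 the counts were 39 in LEN mutant and 156 in wild-type hearts at 3 dpa, and 4 and 9 in uninjured ones. For cxcl11.1 they were 12 and 72 at 3 dpa, and 3 and 2 in uninjured hearts. The wild-type 3 dpa library was the highest of the 4 for both genes. Their genotype log2 ratios at 3 dpa were -1.96 (-2.56 to -1.5) for cxcl11.3 and -2.39 (-3.62 to -1.71) for cxcl11.1, while in uninjured hearts both intervals included 0.

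The injury log2 ratio of cxcl11.1 was 1.17 in the mutant (-0.33 to 4.03) and 3.91 in wild type (2.85 to 7.83), and these ratios differed by -2.74 (-4.87 to -0.62). That of cxcl11.3 was 2.42 in the mutant (1.38 to 4.79), past the threshold, and 3.47 in wild type (2.74 to 4.86). Their difference of -1.05 had an interval that included 0 (-2.60 to 0.49). The mutant ratio was the lower one for both genes, and the difference was past the threshold for cxcl11.1.

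The 5 other cxcl11 genes were below the filter, with 0 to 25 counts, and 4 of them were highest in the wild-type 3 dpa library. At 3 dpa cxcl11.4 had 10 counts in the mutant and 19 in wild type, cxcl11.5 had 5 and 17, cxcl11.6 had 7 and 25, and cxcl11.7 had 6 and 15. The last, cxcl11.8, had 4 and 1. Summed over the 7 genes, the counts were 83 in LEN mutant and 305 in wild-type hearts at 3 dpa and 12 and 15 in uninjured hearts. The sum was 2.14 CPM in the mutant (Wilson 95% interval, 1.72 to 2.65) and 7.95 CPM in wild type (7.11 to 8.90) at 3 dpa, a log2 ratio of -1.87 (-2.26 to -1.54). The difference of the injury log2 ratios of the sum was -1.59 (-2.67 to -0.50). These copies were summed because reads shared between near-identical copies could have been split or dropped in counting.

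**Figure D4:**
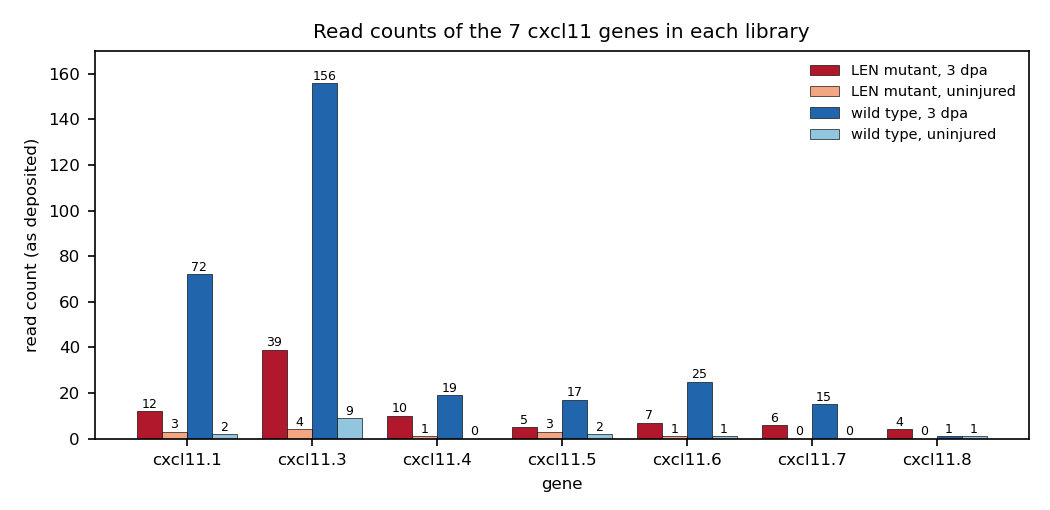
Read counts, as deposited, of the 7 cxcl11 genes in the 4 libraries. Except for cxcl11.8, the wild-type 3 dpa bar is the tallest of each gene, with 156 counts for cxcl11.3 against 39 in the LEN mutant 3 dpa library.

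Gene order placed the difference within a cluster. In the RefSeq gene list of assembly GRCz12tu, 56 members could be placed by symbol, and 27 of them lay directly beside another member. The genes cxcl11.4, cxcl11.3, cxcl11.1 and cxcl20 stood in a row. In contrast to its neighbour cxcl11.1, cxcl20 had 234 counts in the mutant and 314 in wild type at 3 dpa, a log2 ratio of -0.44 (-0.69 to -0.19), and 224 and 330 in uninjured hearts (-0.55, -0.81 to -0.30).

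The receptor gene CXCR3 (ENSDARG00000007358) was higher in the mutant in both states. It had 1306 counts in LEN mutant and 506 in wild-type hearts at 3 dpa (1.35, 1.20 to 1.5) and 1510 and 642 in uninjured hearts (1.24, 1.1 to 1.37). It was the 1 member past the threshold in both states, where 1.35% of all tested genes were higher in both. The libraries were ordered by genotype and, within each genotype, the uninjured library was above the 3 dpa one. The other CXCR3-type receptors did not share this order: at 3 dpa cxcr3.2 had 885 counts in the mutant and 723 in wild type (0.27, 0.13 to 0.42), and in uninjured hearts 107 and 158 (-0.55, -0.92 to -0.19). For cxcr3.3 the ratios were 0.17 at 3 dpa (-0.01 to 0.36) and -0.32 in uninjured hearts (-0.64 to -0.02). In mammals CXCR3 is carried by activated T and NK cells, and the 7 matched markers of those cells summed to 5.226 CPM in the mutant and 4.851 CPM in wild type at 3 dpa, and 8.165 and 6.188 CPM in uninjured hearts, with lck at 43 and 20 counts at 3 dpa and 35 and 45 counts uninjured. The marker cd8a was at 0 in the wild-type 3 dpa and LEN mutant uninjured libraries. The part of these cells in the CXCR3 difference was not tested.

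Other members differed by less at 3 dpa. The neutrophil ligands had ratios below 0, with log2 ratios of -0.52 for cxcl8a (-0.91 to -0.15), -0.96 for cxcl8b.1 (-1.59 to -0.43) and -0.53 for cxcl8b.3 (-1.02 to -0.08), all short of the threshold. Their receptor cxcr1 (ENSDARG00000052088) lay on the other side, at 0.98 (0.59 to 1.43), and at 1.01 under scaling by the total count. The 6 matched neutrophil markers summed to 94.29 CPM in the mutant and 71.43 CPM in wild type at 3 dpa, where CSF3R was the 1 past the threshold (23.58 and 11.5 CPM) and lyz was at 2.857 and 3.025 CPM. In uninjured hearts the sums were 38.03 and 41.37 CPM. Their part in the cxcr1 value was not tested. The ligands ccl34b.8 (-0.92, -1.37 to -0.52), ccl34b.4 (-0.93, -1.75 to -0.27) and ccl34b.9 (-0.74, -1.34 to -0.21) were also below 0, as was ccl35.1 (-0.50, -0.89 to -0.13). Of the ligands, CXCL14 (0.52, 0.29 to 0.75) and cxcl18a.1 (0.02, -0.65 to 0.68) were above 0.

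The genotype comparison in uninjured hearts asked whether differences preceded injury. Here 1 member was past the threshold and higher in the mutant, CXCR3, and 5 were lower, against 3.92% higher and 4.09% lower among all tested genes. The median log2 ratio of the tested members was -0.51, beside -0.03 for all tested genes, and 18 of 22 ligands were below 0. In both states 16 of the 22 ligands were below 0. The share of all tested genes below 0 in both states was not computed, so this count supports nothing by itself. Among all tested genes 52.9% were below 0 in uninjured hearts. The ligands ccl39.2 and ccl33.3 reached 1 CPM only in the wild-type uninjured library, so the count of 18 supports nothing by itself either.

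The 5 lower genes in uninjured mutant hearts were ccl39.2, cxcl8b.3, ccl34a.4, ccl34b.9 and ccr12b.2. The ligand ccl39.2 had 0 counts in the LEN mutant and 35 in the wild-type uninjured library, a log2 ratio of -4.42 with an interval below -3.16. With the mutant set at 3 counts it was 11.6-fold lower, which is not a limit of the interval. This ligand was tested through the wild-type uninjured library alone (1.217 CPM), so its call supports nothing by itself. It had 5 and 12 counts at 3 dpa. For ccl34a.4 there were 71 and 180 counts (-1.32, -1.75 to -0.93), for cxcl8b.3 17 and 51 (-1.49, -2.46 to -0.76), for ccl34b.9 8 and 22 (-1.28, -2.83 to -0.23) and for ccr12b.2 3 and 14 (-1.73, -4.66 to -0.38). None of the 5 was past the threshold at 3 dpa.

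Others fell short of the threshold with intervals below 0, among them ccl25b (-0.82, -0.97 to -0.67), cxcl18b (-0.79, -1.04 to -0.56) and the CXCR4 gene ENSDARG00000041959 (-0.72, -1.04 to -0.42). The cxcl12b ligand had 958 counts in the mutant and 771 in wild type (0.32, 0.18 to 0.46). All 8 hepatocyte markers were lower in the mutant in this contrast, with fabp10a at 12 counts in the LEN mutant and 3748 in the wild-type library and tfa at 1151 and 10356. The mucosa and skin list summed to 331.8 and 445.1 CPM, with 4 of its 6 genes lower in the mutant. Their part in the lower ligand values of the mutant was not tested.

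Setting the injury log2 ratio in the mutant minus that in wild type gave a difference past the threshold and above 0 for 4 members and below 0 for 2, against 4.34% and 1.48% of all tested genes. The 4 were ccl39.2 at 3.44 (0.88 to 6.0), the CXCR4 gene ENSDARG00000057633 at 1.68, ccr12b.2 at 1.60 and ccl34a.4 at 1.08. The 2 were cxcl11.1 at -2.74 and ccr12b.1 at -2.53. Of the first 4, ccl39.2, ccr12b.2 and ccl34a.4 were also among the genes lower in the mutant uninjured library, which enters both comparisons. In contrast, the cxcl11.1 value arose at 3 dpa. The genes ccl39.2, ENSDARG00000057633, cxcl11.1 and ccr12b.1 each reached 1 CPM in a single library and were tested through it. It was the wild-type uninjured library for ccl39.2 (1.217 CPM) and the LEN mutant 3 dpa library for ENSDARG00000057633 (1.467 CPM). For cxcl11.1 (1.878 CPM) and ccr12b.1 (1.017 CPM) it was the wild-type 3 dpa library. Their calls therefore support nothing when set against the share of all tested genes. Of the 40 tested members 11 were past the threshold in none of the comparisons. The share over all tested genes was not computed for this, so the count supports nothing by itself.

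The 40 members below the filter had at most 29 counts in any library, and 2 of them, ccl33.2 and ccl39.4, had 0 counts in all 4. The floor set for a count of 0, which is 3 counts, was 0.0772 to 0.105 CPM, depending on the library. They comprised 30 ligands and 10 receptors, including both XCR1 genes (1 to 7 counts), CXCR5 (4 to 7), CCR7 (0 to 6) and ccr10 (6 to 14). Calls that include them are counted only in the setting without a filter, where theirs rest on these low counts. The ligand ccl19b, in mammals a lymphoid-homing chemokine that acts on CCR7, had 12 and 1 counts in the mutant and 5 and 18 counts in wild type, so that its uninjured library was the lower one in the mutant and the higher one in wild type. For ccl35.2 the counts were 22 and 2 in the mutant and 11 and 3 in wild type.

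Genes that act downstream of chemokine receptors were followed as a list of 52 symbols, of which 49 were matched to 50 IDs and 46 IDs were tested. In LEN mutant hearts 15 were past the threshold and higher at 3 dpa and 0 lower, and in wild-type hearts 13 were higher and 0 lower, with median log2 ratios of 0.41 and 0.43. Among all tested genes 14.7% and 13.2% were higher. Ranked by the larger of each gene's ratios in the 2 genotypes, the first 4 were RHOG, GNGT2, GNAI3 and PIK3R5; in the mutant alone LYN and rac2, both at 2.10, were above PIK3R5. The gene RHOG (ENSDARG00000068653), a small GTPase of leukocyte migration, had 58 and 3 counts in LEN mutant 3 dpa and uninjured hearts (3.24) and 61 and 6 counts in wild-type ones (2.62). The G protein subunit gene GNGT2 (ENSDARG00000010680) had 30 and 2 counts in the mutant (2.69) and 48 and 5 in wild type (2.49). Both rest on uninjured counts of 2 to 6. They also reached 1 CPM only at 3 dpa and were tested through those libraries. The counts of 15 and 13 include them and therefore support nothing by themselves when set against the shares. The other higher genes reached 1 CPM in an uninjured library.

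The inhibitory G protein gene GNAI3 had 268 and 42 counts in the mutant (2.19, 1.76 to 2.74) and 215 and 29 in wild type (2.41, 1.91 to 3.09). The gene PIK3R5, a regulatory subunit of the lipid kinase that G proteins activate, had 469 and 83 counts in the mutant (2.04, 1.72 to 2.41) and 458 and 77 in wild type (2.13, 1.81 to 2.53). All 4 genes were higher in both 3 dpa libraries than in both uninjured ones. By genotype, PLCB2 was the 1 gene of the list past the threshold at 3 dpa, with 20 counts in the mutant and 7 in wild type (1.25), and it was also higher in uninjured mutant hearts, with 29 and 12 counts (1.17). PTK2B (ENSDARG00000039577) was lower there, with 7 counts in the mutant and 33 in wild type (-1.99). Of the 46 tested IDs, 1 was thus higher at 3 dpa, and 1 was higher and 1 lower in uninjured hearts. Among all tested genes 2.24% were higher at 3 dpa, and 3.92% were higher and 4.09% lower in uninjured hearts. These genotype calls are not above those shares and are not a result about the list. PLCB2 reached 1 CPM only in the LEN mutant uninjured library (1.012 CPM). PTK2B (ENSDARG00000039577) reached it only in the wild-type uninjured library (1.147 CPM). Their uninjured calls came through the library in which each was high and support nothing by themselves.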

How the data were processed

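RNA-seq read counts per gene were deposited by the authors as 1 raw count table per library, with 32520 Ensembl gene IDs. HISAT2, featureCounts and the GRCz11 build are named in the submitters' processing notes; versions, annotation release, strand setting and treatment of reads with several matches are not given in the sources used here, so counts of tandem or near-identical copies are uncertain. Symbols came from a gene name table (29201 IDs with a symbol) and gene order from RefSeq GRCz12tu.

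Counts were scaled by TMM in edgeR 4.0.16 (R 4.3.3) over all 4 libraries. Genes with at least 1 scaled CPM in at least 1 library, 28.7 to 38.8 counts, were kept. Log2 ratios used a prior count of 2. The 95% intervals were exact conditional binomial (Clopper-Pearson) for ratios, delta-method for differences of ratios and Wilson for levels. With 1 library per group there was no test. A count of 0 was set at 3 counts for fold values, which are not interval limits. The procedure was tested on simulated data. Every tested member is named; of the signalling list, the 4 genes with the largest injury ratio in either genotype are. LYN, rac2, PLCB2, PTK2B, CSF3R, il2rb, cd4-1, npsn, MMP9 and il6r were named after their values were seen. Alternatives were DESeq2 1.42.0 size factors, total counts, upper-quartile factors, other filters, prior counts and a log2 threshold of 2. The members and lists were chosen with earlier results of these data known.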

Additional observations from a re-analysis of the deposited data

Results flagged for a closer look

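For 5 tested members the injury log2 ratios of LEN mutant and wild-type hearts lay on opposite sides of 0, and with 1 library per group none of these differences was tested against variation between hearts. For ccl39.2 the difference, mutant minus wild type, was 3.44 (0.88 to 6.0), with 5 and 0 counts in LEN mutant 3 dpa and uninjured hearts and 12 and 35 counts in wild-type ones. For ccl25b it was 0.77 (0.57 to 0.96), with a ratio of 0.59 in the mutant and -0.17 in wild type. For ccl34b.4 it was -0.93, with an interval that included 0 (-1.94 to 0.07). For ACKR2 it was -0.37 (-1.03 to 0.30) and for ACKR3 (ENSDARG00000058179) -0.21 (-0.43 to 0.00), with both ratios of each gene between -0.26 and 0.16.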

How the results depend on the processing

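Over 5 scaling and prior count alternatives, 982 of 1000 log2 ratios of tested members kept their side of the threshold. The threshold was lost by 7 and gained by 11. Of the ratios past the threshold in either setting, 0 changed sign. Sign changes of other ratios were not counted, such as ACKR2 with injury in the mutant, at -0.26 and at 0.04 under total counts. With a log2 threshold of 2, 13 members were higher with injury in the mutant and 14 in wild type. In both genotypes 0 were lower. Of 16509 tested genes, 818 were then higher and 53 lower in the mutant, and 702 higher and 276 lower in wild type. By genotype 0 members were higher and 1 lower at 3 dpa, against 48 and 18 of all tested genes. In uninjured hearts 0 were higher and 1 lower, against 91 and 264. The difference of injury responses had 1 member above 0 and 2 below, against 296 and 31. With a minimum of 5 scaled CPM, 18 members and 12281 genes were tested. With injury 9 members were higher and 0 lower in the mutant, against 1528 and 662 of all genes. In wild type 7 were higher and 2 lower, against 1416 and 650. By genotype 1 was higher and 0 lower at 3 dpa, against 178 and 38. In uninjured hearts 1 was higher and 1 lower, against 350 and 254. The difference had 1 above 0 and 0 below, against 279 and 83. Without a filter, 78 members and 26110 genes were tested. With injury 29 members were higher and 2 lower in the mutant, against 2930 and 1195 of all genes. In wild type 27 were higher and 7 lower, against 2601 and 1530. By genotype 1 was higher and 4 lower at 3 dpa, against 650 and 318. In uninjured hearts 1 was higher and 8 lower, against 822 and 1004. The median wild-type injury ratio was 0.33, since more low genes were included. Under total counts 2 were higher by genotype at 3 dpa and 1 lower with injury in wild type, against 407 and 624 of 16508 genes. With upper-quartile factors 39 members were tested and the difference had 4 above 0 and 1 below, against 697 and 255 of 16498 genes. With a prior count of 10, 3 were lower in uninjured mutant hearts, against 517 of 16509 genes, and ccr12b.2 (-0.96) and ccl34b.9 (-0.88) fell short. The difference of cxcl11.3 was then -1.26. With the LEN mutant uninjured library as wild-type baseline, an alternative chosen after seeing the data, 26 were higher and 1 lower with injury. The share over all tested genes was not computed for that baseline. Unless stated, the cause was not tested.

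No paired analysis was possible because each group had 1 library, and no library was left out in turn. Depth limits the members below the filter, and ratios that rest on fewer than about 10 counts have wide intervals.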
